A study of Mus musculus with 20 samples.

Results

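Dentate granule cell markers were followed in the hippocampus of young adult mice after gestational exposure to nPM, the nano-sized fraction of urban air particulate matter. The genes are Dsp, C1ql2, Tdo2, Lct, Stxbp6, Trpc6, Plk5, Calb1 and Glis3, taken by their symbols in the deposited gene table, and they are 9 of its 48709 genes. RNA of the hippocampus was sequenced from 20 mice, 5 in each of 4 groups, made up of females and males of the control and of the nPM dams. All were offspring of wild-type C57BL/6J dams. nPM dams inhaled re-aerosolized particles during 5 hours of a day, 3 days weekly, from gestational day 2 until birth, at a dose the labels give as 300 mg/m3 where the study's methods have the same number in μg/m3, and control dams inhaled filtered air. Females were 17.71 to 18.29 weeks old and males 18.57 to 19.14 weeks old, and the males had also received injections of EdU, a label of dividing cells. The methods give 5 litters per exposure and do not tie samples to litters, so littermates may be among the 5 samples of a group.

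Granule cells are the principal neurons of the dentate gyrus. They receive input from the entorhinal cortex and send their axons, the mossy fibers, to the CA3 field, and new granule cells are added in adult rodents. The genes followed here are known as markers that set granule cells apart from the pyramidal cells of the CA fields, although several are also used elsewhere: Calb1 marks many interneurons and part of the CA1 pyramidal cells, and Glis3 and Trpc6 are active in other organs. Their products include structural and synaptic proteins (Dsp, C1ql2, Stxbp6), a calcium-permeable channel and a calcium buffer (Trpc6, Calb1), enzymes and a kinase relative (Tdo2, Lct, Plk5), and a transcription factor (Glis3). Since the samples are bulk tissue, fewer granule cells and less RNA per granule cell cannot be told apart.

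The deposited values were whole-number counts of reads per gene, with 19092067 to 38663408 counts per sample. Values below are CPM (counts scaled to a common TMM library size) or, between genes, RPKM (the same per kilobase of the deposited gene length). A count of 0 would allow up to 3 counts, or 0.0784 to 0.164 CPM, which covers counting error alone; the fewest counts of any marker in a sample were 80, for Tdo2. All 9 markers passed the filter on low counts and were tested among 19797 genes. Some libraries stood apart in neighboring tissue or cell lists. Control male 1 had the lowest summed oligodendrocyte markers (2209 CPM, against 2717 to 5115 CPM in the others). nPM female 1 had the highest sum of striatum markers (514 CPM, against at most 181 CPM). It also had the highest sum of choroid plexus markers (13422 CPM, against at most 11883 CPM) and the lowest of neocortex markers (105 CPM). nPM female 3 had the lowest sum of the 9 granule cell markers (258 CPM). Summed blood markers were 43.0 CPM in control male 1, 30.0 CPM in nPM male 1 and 56.9 CPM in nPM male 2, against at most 6.57 CPM in the other 17 samples, and their part in the marker values was not tested beyond fits that left these 3 out.

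Promoter sequences were at hand for 8 of the 9 markers, as RefSeq windows of 300 bases on GRCm38.p6, from 250 bases before the annotated start to 50 after it; Calb1 had no entry. The 5 shown belong to the 3 pairs with the highest correlation across samples (described below), which are Dsp with Glis3, Stxbp6 with Trpc6 and Tdo2 with Trpc6. They are written 5′ to 3′ in the direction of transcription, and capitals mark exact matches, on either strand, to TATAAA (the box near many start sites), to CCAAT, to GGGCGG (the core of a GC box) or to CAGCTG (an E-box).
Dsp (chr13:38151044-38151343, plus strand) and Glis3 (chr19:28680028-28680327, minus strand), then Stxbp6 (chr12:45074434-45074733, minus strand), Tdo2 (chr3:81975679-81975978, minus strand) and Trpc6 (chr9:8543892-8544191, plus strand):
Dsp: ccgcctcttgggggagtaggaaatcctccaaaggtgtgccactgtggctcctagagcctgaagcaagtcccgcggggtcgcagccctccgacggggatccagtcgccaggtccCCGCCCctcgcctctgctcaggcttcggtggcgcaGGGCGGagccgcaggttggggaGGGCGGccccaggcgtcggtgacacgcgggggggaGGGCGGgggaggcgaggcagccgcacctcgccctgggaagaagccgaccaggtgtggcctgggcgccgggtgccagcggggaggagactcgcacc
Glis3: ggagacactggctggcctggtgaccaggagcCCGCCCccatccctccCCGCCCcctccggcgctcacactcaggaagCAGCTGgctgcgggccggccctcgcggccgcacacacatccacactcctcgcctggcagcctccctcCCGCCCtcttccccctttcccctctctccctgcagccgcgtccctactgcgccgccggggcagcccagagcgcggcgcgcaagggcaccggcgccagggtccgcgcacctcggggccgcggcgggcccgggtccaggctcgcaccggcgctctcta
Stxbp6: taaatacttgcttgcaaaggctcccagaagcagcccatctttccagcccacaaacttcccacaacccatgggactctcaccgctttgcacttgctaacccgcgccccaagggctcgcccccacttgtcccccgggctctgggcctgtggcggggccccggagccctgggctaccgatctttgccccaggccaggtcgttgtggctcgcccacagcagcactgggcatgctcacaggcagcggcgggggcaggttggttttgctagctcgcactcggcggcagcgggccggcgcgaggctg
Tdo2: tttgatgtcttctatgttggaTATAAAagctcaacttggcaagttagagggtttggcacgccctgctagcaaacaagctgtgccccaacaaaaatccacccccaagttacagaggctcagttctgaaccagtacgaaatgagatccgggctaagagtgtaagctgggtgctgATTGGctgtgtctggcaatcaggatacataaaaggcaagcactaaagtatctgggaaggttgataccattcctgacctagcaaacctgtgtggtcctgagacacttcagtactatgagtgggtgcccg
Trpc6: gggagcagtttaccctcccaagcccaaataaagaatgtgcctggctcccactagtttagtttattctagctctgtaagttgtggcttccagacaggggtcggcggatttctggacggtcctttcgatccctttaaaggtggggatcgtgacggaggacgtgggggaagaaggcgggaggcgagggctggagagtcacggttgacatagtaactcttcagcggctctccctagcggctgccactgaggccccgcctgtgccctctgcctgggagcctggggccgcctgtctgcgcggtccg

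The windows were unlike in base composition. GC content was 76.3% for Glis3, 73.0% for Dsp, 67.3% for C1ql2, 66.7% for Plk5, 66.3% for Stxbp6, 47.7% for Tdo2 and 44.7% for Lct, with Trpc6 between Stxbp6 and Tdo2, against a median of 52.7% over 32851 RefSeq promoters. GGGCGG was found in 4 of the 8 windows (4 matches each for Dsp and Plk5, 3 of those of Plk5 overlapping, 3 for Glis3 and 1 for C1ql2) and in 35.7% of all promoters. TATAAA was found only for Tdo2, at -229 from the annotated start, and is held by 13.6% of all promoters. CCAAT was found for Tdo2 and Plk5 (37.4% of all promoters) and CAGCTG for Glis3 (16.3%). The E-boxes CAGATG (17.2%) and CACGTG (7.15%) and the cAMP response element TGACGTCA (1.79%) had no exact match in any of the 8 windows. The pair Dsp and Glis3 had GC-rich windows with GGGCGG in common, while Stxbp6 and Trpc6 held none of the searched motifs.

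Levels of the markers, per length, ranged from a median of 20.8 RPKM over the 20 samples for Calb1 (mean 20.9 ± 5.98, SD, n = 20) to 2.39 RPKM for Tdo2 (2.41 ± 0.928). Stxbp6 had a median of 16.1 RPKM, Trpc6 14.5, C1ql2 9.44, Dsp 8.07, Lct 7.98, Glis3 2.65 and Plk5 2.46. Trpc6 was above C1ql2 in 20 of 20 samples, Calb1 above Stxbp6 in 16, Stxbp6 above Trpc6 in 15, and Lct above Glis3 in 19. C1ql2, Dsp and Lct changed places from sample to sample: C1ql2 was above Dsp in 13 samples and Dsp above Lct in 7, although its median was higher. Glis3 was above Plk5 in 12 samples and Plk5 above Tdo2 in 11, so the order of these 3 lowest genes was not resolved beyond their spread. Parts of 3 genes overlap others: Dsp with Gm10129 (0 to 7 counts per sample), Stxbp6 with Gm15901 (0 to 8) and Gm15902 (6 to 89), and Glis3 with 4933413C19Rik (5 to 117) and D930032P07Rik (0 to 5). Reads there cannot be assigned with certainty, since the strand setting is not given in the sources used here.

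**Figure D1:**
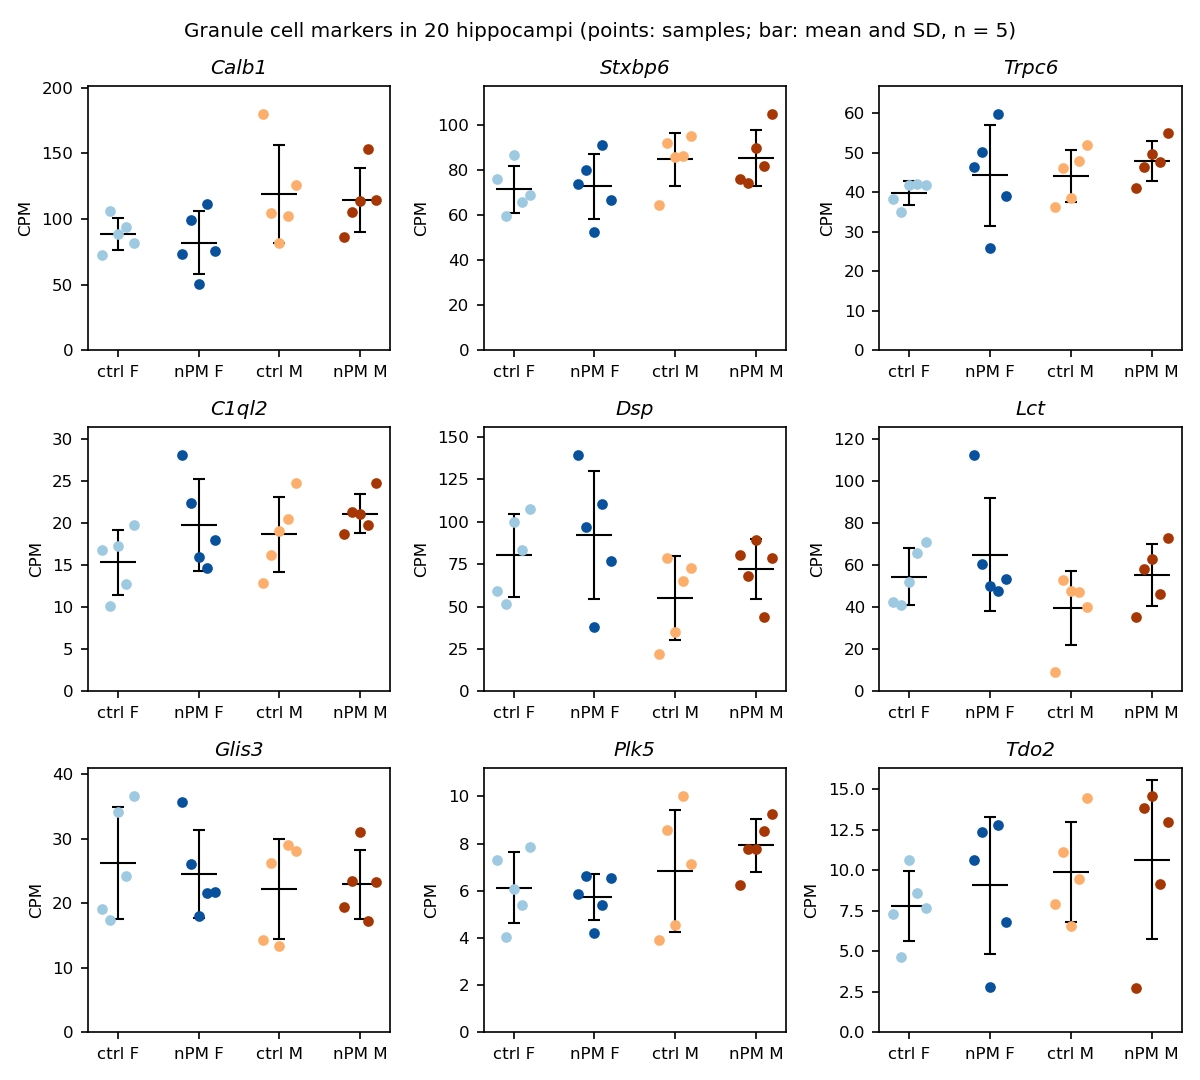
Each panel plots 1 granule cell marker in CPM (linear axis from 0) for the control and nPM samples of each sex. Points are samples, and the bar and whiskers are the mean and SD (n = 5). Groups overlap in every panel, and Lct in control male 1 (9.32 CPM) and nPM female 1 (112 CPM) and Tdo2 in nPM male 1 (2.73 CPM) and nPM female 3 (2.78 CPM) lie far from the rest.

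The first comparison asked whether gestational nPM exposure changed these genes in the adult hippocampus. With both sexes and sex as a covariate, 0 of 9 markers had p under 0.005, the study's threshold, where 0.141% of all genes tested did (28 of 19797), and 0 had an adjusted p under 0.05, as for all genes (0). At p under 0.05 there was 1 marker, C1ql2, beside 2.10% of all genes. By edgeR's quasi-likelihood test 0 markers had p under 0.05 and by the DESeq2 Wald test 1 had. The median log2 difference of the markers was 0.10, beside -0.0059 over all genes, with 7 of 9 positive. Of these 7, Stxbp6 (0.0088) and Glis3 (0.0028) changed sign in 7 and 10 of 20 fits with a sample left out. The markers also go together across samples (described below), so their signs are not independent. Log2 differences ran from -0.093 for Calb1 to 0.43 for Lct.

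C1ql2, a secreted protein of the mossy fiber synapse that clusters kainate receptors, is located on chromosome 1, 120340582 to 120343174 (mm10, ENSMUSG00000036907.9). It was at 16.9, 10.1, 17.3, 12.7 and 19.8 CPM in control females and 28.1, 22.4, 16.04, 14.6 and 18.0 CPM in nPM females. In males it was at 12.9, 16.3, 19.0, 20.5 and 24.8 CPM in control males and 18.7, 21.3, 21.1, 19.8 and 24.8 CPM in nPM males. The nPM means were above the control means in both sexes, with overlapping groups: 19.8 ± 5.46 against 15.3 ± 3.86 CPM in females and 21.1 ± 2.29 against 18.7 ± 4.48 CPM in males (SD, n = 5). The log2 difference was 0.28 (SE 0.13, 95% interval 0.0034 to 0.55, n = 20, limma p = 0.0475, adjusted p = 0.9998), that is 1.21-fold, and in exact permutation tests it was not past 0.05 in females (p = 0.190) or males (p = 0.270). Without nPM female 1, which had the highest C1ql2, the difference was 0.20 (limma p = 0.114, n = 19 samples). With any 1 of the 20 samples left out the difference was 0.20 to 0.34, and p was above 0.05 in 11 of those fits: without control females 1, 2 and 4, control males 1, 2 and 3, nPM females 1, 2 and 5 and nPM males 2 and 5. It was also above 0.05 with the replicate block, with age as a covariate and without the 3 samples high in blood markers.

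Lct, the gene of lactase, an enzyme known from the intestine (chromosome 1, 128284756 to 128328318, ENSMUSG00000026354.8), had the largest difference in size of the 9 markers. It was at 42.6, 41.3, 51.9, 66.1 and 71.2 CPM in control females and 112, 60.8, 50.3, 48.0 and 53.6 CPM in nPM females. In males it was at 9.32, 53.2, 47.9, 47.2 and 40.4 CPM in control males and 35.5, 58.4, 62.9, 46.5 and 73.2 CPM in nPM males. Control male 1 was far below every other sample and nPM female 1 far above. The log2 difference was 0.43 in both sexes (95% interval -0.093 to 0.94, limma p = 0.103), 0.64 in males (-0.24 to 1.51, exact permutation p = 0.198) and 0.23 in females (-0.27 to 0.73, exact permutation p = 0.516). Without control male 1 it was 0.19 in males and 0.21 in both sexes, and without nPM female 1 it was 0.0052 in females, so the size of the Lct difference rested on these 2 libraries.

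Dsp encodes desmoplakin, which ties desmosomes to intermediate filaments (chromosome 13, 38151328 to 38198577, ENSMUSG00000054889.9). It was at 59.0, 51.3, 99.7, 83.2 and 107 CPM in control females and 139, 96.8, 38.0, 111 and 76.7 CPM in nPM females. In males it was at 22.3, 78.9, 35.2, 65.3 and 72.9 CPM in control males and 80.5, 68.3, 89.3, 43.6 and 78.7 CPM in nPM males. Control male 1 and nPM female 3 were lowest in their groups, one in the control and the other in the nPM arm. Log2 differences were 0.31 in both sexes (95% interval -0.20 to 0.82, limma p = 0.216), 0.49 in males (exact permutation p = 0.214) and 0.15 in females (exact permutation p = 0.762). Without control male 1 the difference in both sexes was 0.17, and without nPM female 3 it was 0.46 (n = 19, limma p = 0.0447), still short of the study's threshold.

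Tdo2 encodes tryptophan dioxygenase, the entry step of the kynurenine pathway (chromosome 3, 81957090 to 81976202, ENSMUSG00000028011.16). It was at 7.3, 4.66, 10.6, 8.57 and 7.7 CPM in control females and 10.6, 12.4, 2.78, 12.8 and 6.8 CPM in nPM females. In males it was at 7.91, 11.1, 6.54, 9.43 and 14.5 CPM in control males and 2.73, 13.8, 14.6, 9.15 and 13.0 CPM in nPM males. nPM female 3 and nPM male 1 had the lowest values of all 20 samples, while the other nPM samples lay between 6.80 and 14.6 CPM. The log2 difference was -0.066 in both sexes (95% interval -0.69 to 0.56, limma p = 0.827, n = 20), -0.11 in males and 0.011 in females. It turned to 0.34 in males without nPM male 1 and was 0.41 in females without nPM female 3, and in both sexes it was positive in edgeR's test (0.16) and DESeq2's (0.16), so no direction can be given for Tdo2.

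The other 5 markers had log2 differences from -0.093 to 0.11 in both sexes. Trpc6, a cation channel opened by diacylglycerol (chromosome 9, 8544196 to 8680565), had a log2 difference of 0.10 in both sexes (95% interval -0.12 to 0.32), and 0.19 without nPM female 3 (n = 19, limma p = 0.0337). Its range was 35.1 to 42.0 CPM in control females, 25.9 to 59.7 in nPM females, 36.2 to 51.9 in control males and 41.0 to 54.9 in nPM males. Plk5, a polo-like kinase known from neurons (chromosome 10, 80356459 to 80365489), had 0.11 (-0.23 to 0.44), with 0.24 in males and -0.057 in females. Stxbp6, also called amisyn, a protein that binds the SNARE proteins of vesicle fusion (chromosome 12, 44852488 to 45074493), had 0.0088 (-0.19 to 0.21). Glis3, a zinc finger transcription factor (chromosome 19, 28258851 to 28680077), had 0.0028 (-0.36 to 0.37), and its sign changed with the test. Calb1, calbindin, a calcium buffer of mature granule cells (chromosome 4, 15881264 to 15908064), had -0.093 (-0.39 to 0.20). The interval was narrowest for Stxbp6 and widest for Tdo2.

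**Figure D2:**
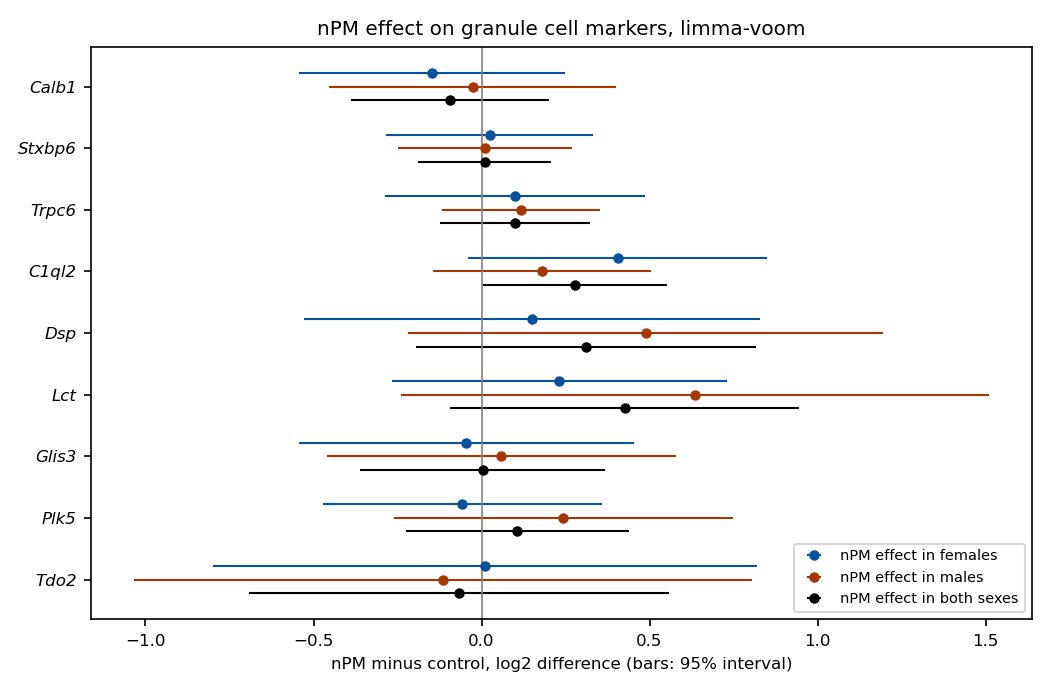
Points are nPM minus control log2 differences (x axis) of each marker (y axis) in females, males and both sexes from limma-voom, with 95% intervals. Of the 27 intervals, only that of C1ql2 in both sexes (0.0034 to 0.55) leaves out 0.

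Within each sex, 0 of 9 markers had p under 0.005 in males, where 0.207% of all genes did, and 0 of 9 in females, where 0.0909% did. The median log2 difference was 0.12 in males (all genes -0.0013) and 0.024 in females (all genes 0.0038). Two-sided exact permutation tests, which can reach 0.00794 with 5 samples against 5, gave values of 0.198 or above in males and 0.190 or above in females, unadjusted over the 9 genes, and the nPM and control samples overlapped for all 9 markers in both sexes. The interaction of sex and nPM tested whether the effect differed between males and females, and 0 of 9 markers passed p under 0.005, beside 0.217% of all genes. The largest interaction was that of Lct (0.42 log2, males minus females, 95% interval -0.62 to 1.46, limma p = 0.410, n = 20), which was -0.026 without control male 1. Dsp had 0.36 (-0.67 to 1.38) and C1ql2 -0.21 (-0.77 to 0.35).

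Related genes, which work with the markers or belong to their families, were read from the same fits. Of the desmosome genes beside Dsp, 5 of 7 were tested. Of these, 1 had p under 0.005, Dsc3 (desmocollin), which had lower values after nPM in males. Its log2 difference was -1.35 in both sexes (SE 0.42, n = 20, limma p = 0.00462, adjusted p = 0.9998) and -2.11 in males (n = 10, limma p = 0.00250, adjusted p = 0.963). In each of these fits 1 of 42 related genes passed (2.38%), beside 0.141% of all genes in both sexes and 0.207% in males. In females the 5 tested desmosome genes, Dsc3 among them, had log2 differences from -0.14 to 0.25. Dsc3 was not refitted with samples left out. Dsc3 was at 3.49 to 18.5 CPM in control males, 0.716 to 2.74 in nPM males, 0.863 to 4.13 in control females and 0.529 to 3.10 in nPM females, so the males did not overlap and the females did. Dsp itself, which joins desmocollins to filaments, had positive values in both sexes. None of the other tested family genes had p under 0.005 for nPM in both sexes, in males, in females or in the interaction: 6 of 6 tested of the mossy fiber synapse genes beside C1ql2, 5 of 11 of the kynurenine pathway beside Tdo2, 7 of 7 SNARE genes beside Stxbp6, 5 of 5 TRPC channels, 4 of 4 polo-like kinases, 5 of 7 calcium-binding proteins and 5 of 5 Glis and Gli factors. Of the 7 other granule cell genes (Prox1, Dock10, Rfx3, Maml2, C1ql3, Fam163b, Pdyn), 0 passed as well, with a median log2 difference of 0.040 in both sexes.

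The sexes were then compared with exposure as a covariate. Sex went together with age and with the EdU injections of males, which cannot be told apart from it. Of the 9 markers, 1 had p under 0.005 and 2 had an adjusted p under 0.05, beside 31.1% and 40.4% of all genes tested; the share of markers was thus below the background, and both were higher in males. The median log2 difference of the markers was 0.21 (males minus females, all genes 0.019).

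Calb1 (ENSMUSG00000028222.2) was at 72.9, 106, 88.6, 93.9 and 82.1 CPM in control females and 73.4, 99.1, 50.4, 111 and 75.8 CPM in nPM females. In males it was at 180, 105, 81.8, 102 and 126 CPM in control males and 86.2, 106, 113, 153 and 114 CPM in nPM males. Of the 10 males, 9 were above the female median, and the sexes overlapped. Calb1 was higher in males by 0.45 log2 (SE 0.14, 95% interval 0.16 to 0.74, 1.37-fold), with limma p = 0.00446 (adjusted p = 0.0146) and an exact permutation p = 0.00869, unadjusted over 9 genes. Values within exposure were 0.37 in controls (limma adjusted p = 0.142) and 0.52 in nPM samples (adjusted p = 0.111). With a sample left out, the difference was 0.37 to 0.51 and p was under 0.005 in 8 of 20 fits (0.00130 to 0.0101), while the adjusted p stayed under 0.05 in each. The 12 samples without which p was above 0.005 were control females 1, 3 and 5, control males 1 and 5, nPM females 1, 3 and 5 and nPM males 2, 3, 4 and 5. Without the 3 samples high in blood markers it was 0.43 with p above 0.005 (adjusted p = 0.0263).

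Stxbp6 (ENSMUSG00000046314.15) was at 76.1, 59.7, 86.6, 65.8 and 69.1 CPM in control females and 74.0, 79.9, 52.6, 91.2 and 66.6 CPM in nPM females. In males it was at 64.6, 92.0, 85.9, 86.3 and 94.99 CPM in control males and 75.9, 74.5, 89.8, 82.0 and 105 CPM in nPM males. All but 1 of the males, control male 1, were above the female median, and ranges overlapped. The log2 difference was 0.25 (SE 0.095, limma p = 0.0164) with an adjusted p of 0.0423 and p = 0.0285 in an exact permutation test. With a sample left out, the difference was 0.19 to 0.29 and limma p was under 0.005 in 1 of 20 fits (0.00404). The adjusted p stayed under 0.05 in 8 of 20 fits (adjusted p 0.0140 to 0.0860). The 12 samples without which it was above 0.05 were control females 2, 4 and 5, control males 2, 3, 4 and 5, nPM females 3 and 5 and nPM males 3, 4 and 5. The adjusted p was also above 0.05 with the filter on a mean of 50 counts (0.0955) and with replicate number as a block (0.0619). Without the 3 samples high in blood markers the difference was 0.35 (adjusted p = 0.00813).

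The remaining 7 markers did not pass. Dsp (-0.44, 95% interval -0.95 to 0.061), Lct (-0.41, -0.93 to 0.10) and Glis3 (-0.16, -0.52 to 0.20) had negative values, and Plk5 (0.31, -0.025 to 0.65), Tdo2 (0.29, -0.34 to 0.93), C1ql2 (0.21, -0.066 to 0.48) and Trpc6 (0.16, -0.062 to 0.39) positive ones. Without nPM female 3, Dsp was at -0.59 (limma adjusted p = 0.0326), and without control male 1 Plk5 was at 0.39 (adjusted p = 0.0348); each passed in no other of the 20 fits with a sample left out. Without the 3 samples high in blood markers, Plk5 was at 0.44 (adjusted p = 0.0347). Of 42 tested genes related to the markers as partners or family members, 8 had p under 0.005, 3 of them higher in males and 5 lower, where 13.9% and 17.1% of all genes were higher and lower. Among the lower ones were Gli2 (-0.78) and Glis2 (-0.42), which are factors related to Glis3. Among synaptic genes, Grik5, a kainate receptor subunit (-0.63), and the SNARE gene Vamp2 (-0.31) were also lower. Of the granule cell genes outside the 9, Fam163b was lower (-0.61, limma adjusted p = 0.00683) and 6 of 7 did not pass. Some markers of other cells also had p under 0.005 for sex, where 31.1% of all genes tested did. Lower in males were 3 of 5 endothelial genes (Flt1, Pecam1 and Slco1a4) and 1 of 4 CA3 genes (Cdh24). Higher were 2 of 5 astrocyte genes (Aqp4 and Gja1) and 1 of 5 microglia genes (P2ry12). The remaining lists of other cells and regions held no gene that passed. The part of these cells in the marker values was not tested.

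The markers also varied between animals of one group. Within groups, the SD of log2 CPM was 0.75 for Tdo2, 0.64 for Lct, 0.62 for Dsp, 0.44 for Glis3, 0.39 for Plk5, 0.36 for Calb1, 0.33 for C1ql2, 0.27 for Trpc6 and 0.23 for Stxbp6, against a median of 0.19 over the genes tested with a mean of at least 50 counts. Counting alone would give 0.026 (Calb1) to 0.10 (Plk5). Tdo2, Lct and Dsp varied more than 97.3%, 95.97% and 95.6% of those genes. Within a single group, the highest sample was up to 5.71-fold above the lowest for Lct (control males), 5.33-fold for Tdo2 (nPM males), 3.66-fold for Dsp (nPM females) and 1.73-fold for Stxbp6 (nPM females).

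These deviations went together across samples. On deviations of log2 CPM from group means (n = 20), 31 of 36 pairs of markers had a positive Pearson r, 22 had r above 0.5, and the median was 0.57. In permutation tests within groups, 21 of 36 pairs had a Benjamini-Hochberg adjusted p under 0.05. These tests were added after the data were seen, and the points share libraries and possibly litters. Of all other genes, 2.92% (for Trpc6) to 9.99% (for Lct) had r above 0.5 with a given marker. Dsp and Glis3 were the closest pair (r = 0.86, Spearman's rho 0.85, permutation p = 5.00e-05 and 7.00e-05, adjusted p = 0.000600), with r = 0.84 in females, 0.87 in males and 0.88 without the 2 samples farthest from the median of Dsp. Stxbp6 and Trpc6 followed (r = 0.84, rho 0.77, permutation adjusted p = 0.000540, 0.75 without the 2 farthest samples), then Tdo2 and Trpc6 (r = 0.82, rho 0.79, permutation adjusted p = 0.000540, 0.78 without the 2 farthest).

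Calb1 went least with the other 8 markers over the 20 samples. Its r with the mean of the others was 0.048, where the others had 0.56 (Lct) to 0.85 (Trpc6), and the median of its 8 pairs was -0.033. It went with Tdo2 (r = 0.50, 0.13 without the 2 farthest samples) and Trpc6 (0.49, 0.056 without them). It went against Lct (-0.42, -0.11 without them) and C1ql2 (-0.28, -0.22 without them), and none of its 8 pairs passed the adjusted threshold. Its r was not alike by sex, although the difference was not tested. In the 10 females r was 0.81 with Trpc6, 0.68 with Tdo2, 0.59 with Stxbp6, 0.51 with Dsp and -0.083 with Lct. In the 10 males it was 0.010, 0.34, -0.32, -0.52 and -0.61 with the same genes. Control male 1 had the highest Calb1 of all samples (180 CPM) and the lowest Dsp (22.3 CPM), Lct (9.32 CPM) and Plk5 (3.92 CPM), while nPM female 3 had the lowest Calb1 (50.4 CPM) together with the lowest Stxbp6 (52.6 CPM) and Trpc6 (25.9 CPM).

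**Figure D3:**
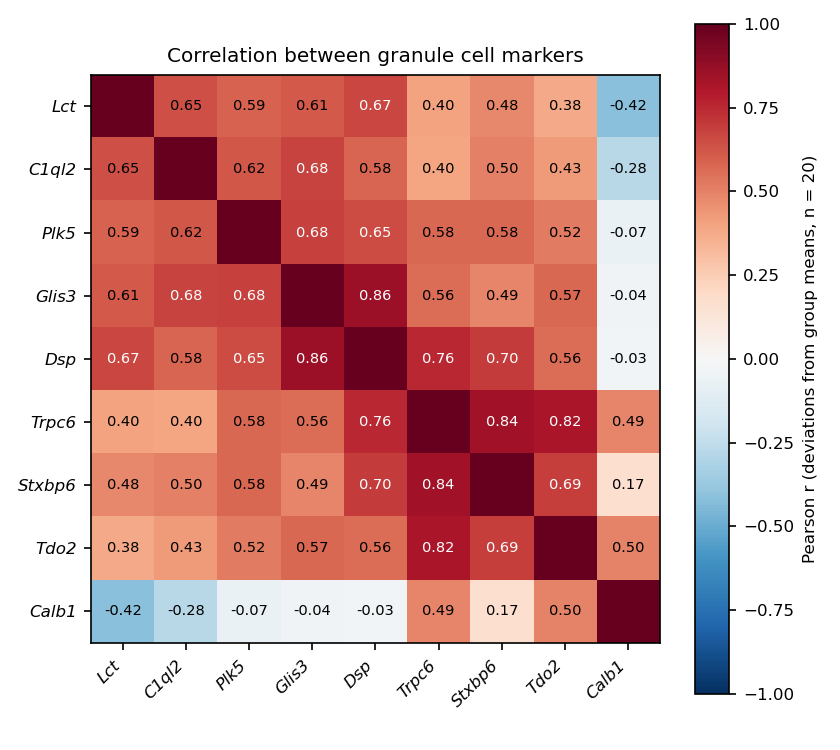
Cells give Pearson's r between each pair of the 9 markers (rows and columns) on deviations of log2 CPM from group means over 20 samples, from -1 (blue) to 1 (red). Pairs among 8 markers run from 0.38 to 0.86, and the row of Calb1 from -0.42 to 0.50.

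Known granule cell genes were among those with the most similar deviations. By r with the mean of the 9 standardized markers (n = 20), the 5 nearest of all other genes tested were Dgkh, a diacylglycerol kinase (0.92), Prox1, the homeobox factor that marks granule cells (0.91), Dock10 (0.90), Prtg (0.90) and Mcm6 (0.90), which lies next to Lct on chromosome 1 (128331590 to 128359664). Without the 2 farthest samples they had 0.84 to 0.87. The nearest gene to each single marker was Frmd4b for Dsp (0.92), Gm11728 for C1ql2 (0.83), Ntf3 for Tdo2 (0.88), 2010300C02Rik for Lct (0.91), Lyst for Stxbp6 (0.92), Lrrtm4 for Trpc6 (0.91), Ddx19a for Plk5 (0.83), A830019P07Rik for Calb1 (0.88) and Maml2 for Glis3 (0.95). The standardized mean of the markers was lowest in nPM female 3, control male 1, control female 2 and nPM male 1, and highest in control male 5 and nPM female 1. Because it is built on deviations from group means, each group holds low and high samples by construction. The order therefore does not compare exposures or sexes.

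**Figure D4:**
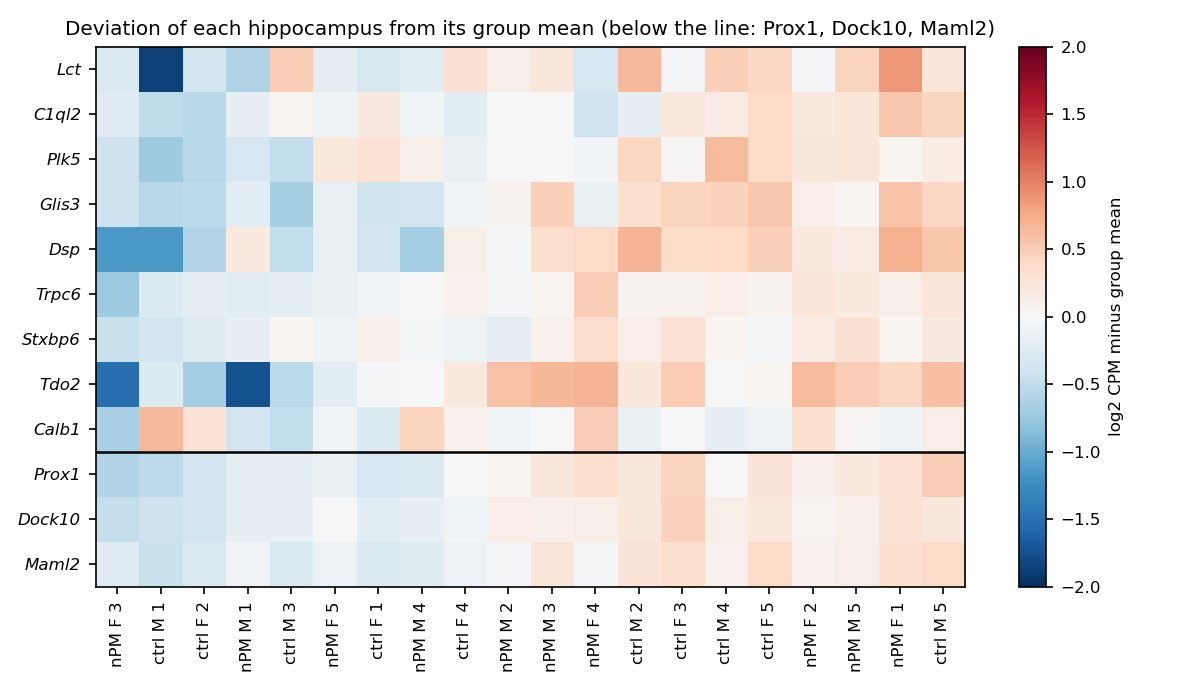
Rows are the 9 markers and, below the line, Prox1, Dock10 and Maml2; columns are the 20 hippocampi (F females, M males), ordered by the mean of the standardized markers. Color is the deviation of log2 CPM from the group mean, from -2 (blue) to 2 (red). Most rows go from blue at the left (nPM female 3, control male 1) to red at the right (nPM female 1, control male 5), while Calb1 is red in control male 1.

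The label of the genes was checked against the summed CPM of the other granule cell genes (474 to 883 CPM per sample). r was 0.89 for Dsp, 0.86 for Glis3, 0.83 for Trpc6, 0.79 for Tdo2 and 0.75 for Stxbp6 (adjusted permutation p = 0.00153 to 0.0254 over 153 pairs of marker and list), 0.61 for Plk5, 0.60 for C1ql2 and 0.59 for Lct (adjusted p = 0.0506 to 0.146), and 0.26 for Calb1 (0.610). Spearman's rho for these ran from 0.90 (Dsp) to 0.16 (Calb1). Lists of neighboring cells and regions moved with some markers too, and their part was not tested. Of the 153 pairs, 4 others had an adjusted p under 0.05: Glis3 with the choroid plexus (r = 0.73, rho 0.76), Glis3 with the neocortex (-0.70, rho -0.70), Lct with CA2 (0.74, rho 0.61) and Trpc6 with astrocytes (-0.62, rho -0.61). By rho both Glis3 pairs kept an adjusted p under 0.05, and the pairs of Lct (permutation adjusted p = 0.0894) and Trpc6 (0.0953) did not. All 7 choroid plexus markers were detected, and their sum was 276 to 960 CPM in control females, 273 to 13422 in nPM females, 254 to 11883 in control males and 357 to 8843 in nPM males. Sums for the neocortex were 105 to 225 CPM, for CA1 307 to 515, for CA2 70.0 to 145, for CA3 118 to 205, for the striatum 131 to 514 and for the thalamus 70.2 to 287 over the 20 samples. The r of Dsp with CA1 markers was negative (r = -0.61, adjusted permutation p = 0.0506), a value that did not pass. Further pairs that did not pass included Calb1 with microglia (r = -0.67, adjusted permutation p = 0.0506), astrocytes (-0.64, 0.0743) and oligodendrocytes (-0.65, 0.0901). Lct with the choroid plexus did not pass either (r = 0.62, adjusted permutation p = 0.0594).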

How the data were processed

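Hippocampal RNA was measured by RNA-seq in 20 samples. Per the labels and the study's methods, the authors depleted ribosomal RNA, trimmed reads with Trimmomatic where needed, used HISAT2 for alignment to mm10 and featureCounts (1.5.0-p3) for counts per gene of Gencode M11. The deposited counts are not normalized. The authors also deposited each gene's length and mean RPKM, which was used in no test; RPKM per sample was computed from the counts and lengths. The strand setting and the handling of reads with several alignments are not given in the sources used here.

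A filter on low counts (edgeR's filterByExpr with the 4 groups, minimum count 10, minimum total 15) left the genes tested. limma-voom (limma 3.58.1, edgeR 4.0.16, R 4.3.3) with TMM factors and empirical Bayes gave log2 differences, 95% intervals and Benjamini-Hochberg adjusted p over all genes tested. log2 CPM has 0.5 added to each count. Exact permutation tests were two-sided; correlation p came from 100000 permutations within groups (Python 3.11.15, scipy 1.17.1). The fits were also run on simulated independent counts, which hold neither the wide spread of some of these markers nor shared litters. The edgeR quasi-likelihood test and DESeq2 1.42.0 were among the alternatives.

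The 9 markers and all lists, and the rule for named genes (every marker, each list gene with p under 0.005, and the genes nearest to the markers by r), were chosen with earlier results of these data known. Of the list symbols, 2 were matched through RefSeq synonyms. Replicate numbers were checked for pairing by the correlation of deviations from group means. The median r was -0.0065 for same-numbered samples and 0.0017 for others, so no pairing was seen. Such a check cannot show that there is none. Some related genes are not reported here. p-values measure the spread between these samples.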

Additional observations from a re-analysis of the deposited data

Results flagged for a closer look

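In 36 tests of the 9 markers in the 4 groups, 4 samples lay farther from the rest of their group than Dixon's 95% critical value for 5 samples (0.71 of the group's range), and chance alone flags about 1 group in 20. Lct in control male 1 (9.32 CPM) was below the other control males, and Lct in nPM female 1 (112 CPM) above the other nPM females. Tdo2 in nPM male 1 (2.73 CPM) was below the other nPM males. Stxbp6 in control male 1 (64.6 CPM) was below the other control males. Their causes were not tested.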

How the results depend on the processing

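With p under 0.005, 0 of 9 markers passed for nPM in both sexes, in males, in females and in the interaction under every alternative run: edgeR, DESeq2, RLE normalization, no filter or a filter on a mean of 50 counts, the replicate block, age as a covariate, 1 fit of the 4 groups, and each sample left out. For the sex difference the count of 1 (Calb1) was 0 with a mean of at least 50 counts (14678 genes tested), in controls alone and in nPM samples alone. With a sample left out the count was 0 to 1, from Calb1 in 8 of 20 fits and from Stxbp6 in 1. Same-numbered samples had r from -0.42 to 0.28 with 10 of 30 pairs over 0.1. Other-numbered samples had r from -0.45 to 0.54 with 33 of 120 pairs over 0.1, so the replicate block is given only for completeness. The block left C1ql2 at 0.26 in both sexes, with p no longer under 0.05, and put Lct in males at 0.56 with p under 0.05 (adjusted p = 0.977). For sex it put Calb1 at 0.45 (adjusted p = 0.0159) and Stxbp6 at 0.25 with an adjusted p of 0.0619, no longer under 0.05. At p under 0.005 it changed no call among the markers.

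Some values changed sign, and the cause was not tested. With both sexes Tdo2 was at 0.16 by edgeR and 0.16 by DESeq2, and Glis3 at -0.026 by edgeR, -0.024 by DESeq2, -0.012 with the block and -0.0031 with age. In males Tdo2 was at 0.10 by edgeR, 0.10 by DESeq2 and 0.062 with the block, and in females at -0.0083 in 1 fit of 4 groups. In the interaction Stxbp6 was at -0.016 by edgeR, -0.015 by DESeq2 and -0.010 with age, and Trpc6 at -0.033 by both tools. Without the 3 samples high in blood markers, an alternative chosen after seeing the data, 0 markers passed for nPM. Tdo2 was then at 0.11, Calb1 at 0.028 and Glis3 at -0.042 in both sexes, at 0.22, 0.28 and -0.034 in males, and Tdo2 at 0.25 in the interaction. For sex 1 marker passed p under 0.005, Stxbp6 (0.35, adjusted p = 0.00813) in place of Calb1 (0.43, adjusted p = 0.0263). Leaving out samples gave, among values that changed sign, with both sexes -0.076 to 0.062 for Glis3, -0.037 to 0.061 for Stxbp6, -0.14 to 0.19 for Tdo2; in males -0.15 to 0.13 for Calb1, -0.10 to 0.18 for Glis3, -0.083 to 0.055 for Stxbp6, -0.30 to 0.34 for Tdo2; in females -0.27 to 0.017 for Calb1, -0.039 to 0.44 for Dsp, -0.21 to 0.074 for Glis3, -0.18 to 0.056 for Plk5, -0.059 to 0.14 for Stxbp6, -0.15 to 0.41 for Tdo2, -0.013 to 0.28 for Trpc6; for the interaction -0.028 to 0.30 for Calb1, -0.035 to 0.27 for Glis3, -0.026 to 0.63 for Lct, -0.11 to 0.077 for Stxbp6, -0.50 to 0.35 for Tdo2, -0.15 to 0.14 for Trpc6. The median r between markers was 0.52 to 0.63 with a sample left out, 0.56 with RLE and 0.49 with group means kept in. Median RPKM moved by less than the SD with library totals in place of TMM.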
